A study of Mus musculus with 9 samples.

Results

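The genes of the transforming growth factor β (TGF-β) and bone morphogenetic protein (BMP) pathway were followed across whole ovaries of WT and ERβKO mice. The set holds 43 named genes, each taken as the row of the deposited count table that carries its symbol, out of 46078 genes in that table, and each was found in 1 row. All 43 passed the filter on low counts, which left 16722 genes for the test. The set is a list of names and was chosen with earlier results of these data known. Its shares of called genes are therefore descriptive.

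The study deposited 1 polyadenylated RNA library from each of 5 WT and 4 ERβKO ovaries, all of mice on the C57BL/6J background and all labelled as untreated. ERβ is the estrogen receptor encoded by Esr2, and the ERβKO mice carry a germline deletion of exon 3 of that gene, made with a Rosa26-driven Cre deleter and kept by breeding heterozygotes, so every cell type of the ovary lacks the exon. The controls were offspring without Cre, the mice of the study were between 4 and 20 weeks of age, and no estrous stage was recorded for the ovaries. A high-fat diet and ligand injections are described in the general protocol of the deposited records, but the labels tie neither to any of these libraries. The counts summed to between 12353740 and 18717510 fragments per library.

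TGF-β is secreted as a latent complex that latent TGF-β binding proteins (LTBPs) anchor in the extracellular matrix until the ligand is released. Free TGF-β and BMP ligands join type II and type I receptor kinases, which phosphorylate receptor-regulated SMADs. These enter the nucleus with the common SMAD4, while inhibitory SMADs, corepressors and ubiquitin ligases limit the response, and the ID proteins are classic BMP targets. In the ovary the family is known for its part in the growth of follicles, the steroid production of granulosa and theca cells and the remodelling of tissue.

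The members that passed the edgeR test were both LTBPs. Ltbp1 fell and Ltbp4 rose in ERβKO ovaries, and these were the 2 of 43 members (4.65%) called by edgeR, against 1.72% of all 16722 genes tested (0.915% called higher and 0.801% called lower). A gene was called when its adjusted p was under 0.05 in the quasi-likelihood test of edgeR, after Benjamini-Hochberg adjustment over all genes, its absolute log2 fold change was over 0.4 and its mean level was over 1 FPKM in at least 1 genotype. Levels are the deposited FPKM, fragments scaled to the length of the transcript and to the depth of the library, so that levels of different genes can be compared. All log2 fold changes below are ERβKO over WT and come from the counts. In DESeq2, the tool of the study, 6 members (14.0%) were called on the same counts and criteria, against 4.78% of all genes (2.22% called higher and 2.56% called lower), and the type I receptor gene Tgfbr1, Smad1 and Skil (lower) and Smad6 (higher) joined the LTBPs. These are whole organs, so fewer cells of a type and less RNA per cell cannot be told apart in any of the values.

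At an unadjusted edgeR p under 0.05 stood 13 members (30.2%), 8 of them higher and 5 lower in ERβKO ovaries, while 19.8% of all genes tested did so, 9.81% higher and 10.0% lower. The members spread evenly in direction, with 21 positive and 21 negative log2 fold changes after rounding, Tgfb3 at 0.00 and a median of 0.00. Their median absolute log2 fold change was 0.21, and that of all genes was 0.15. The summed level of the set was 607 to 694 FPKM in WT and 608 to 643 FPKM in the ERβKO ovaries. For 3 members (6.98%) the ovaries of the genotypes did not overlap in FPKM, which is close to the 7.61% of all genes (4.29% higher and 3.31% lower in ERβKO ovaries).

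**Figure D1:**
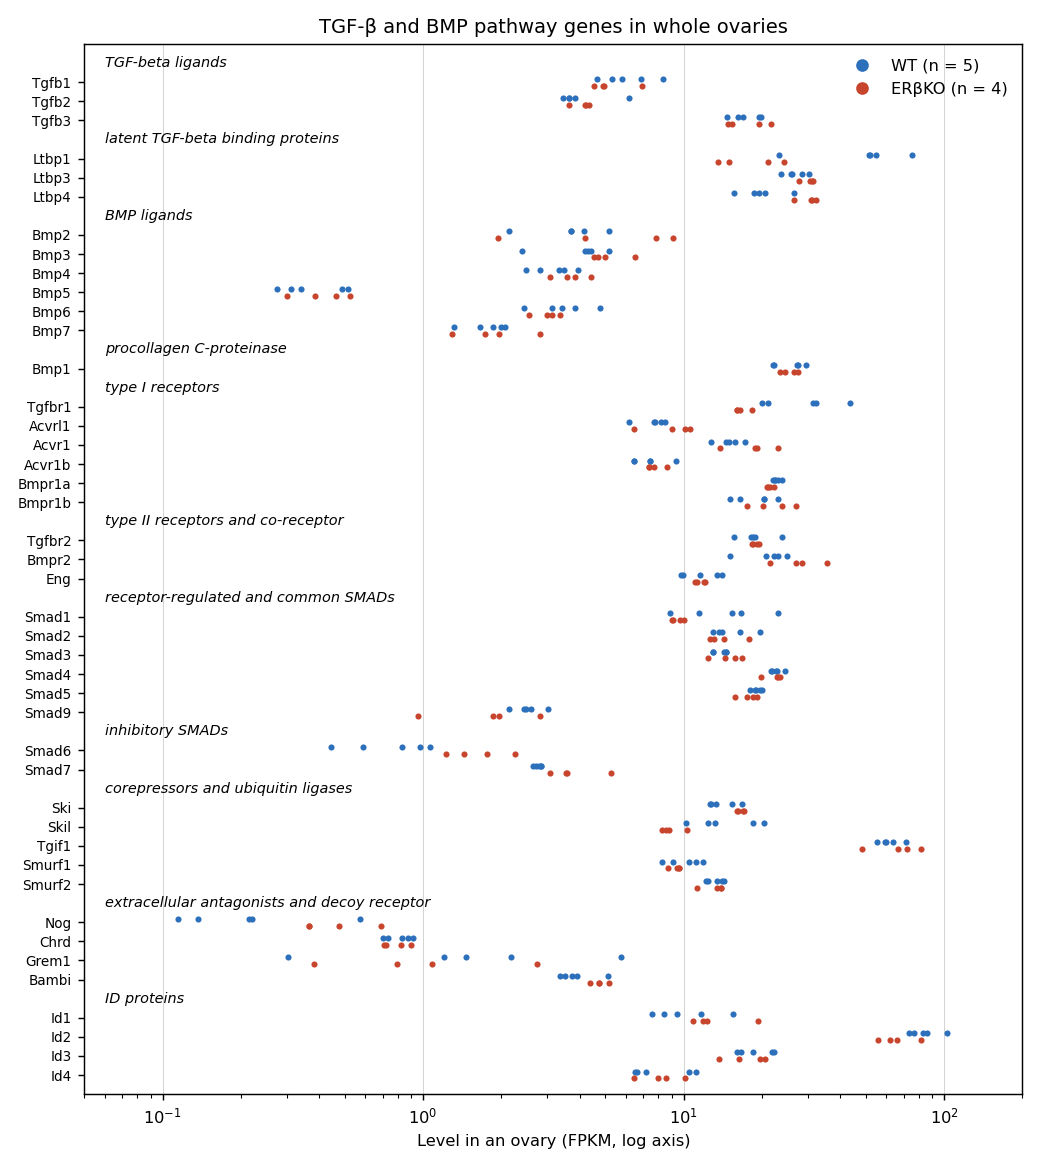
Level of each of the 43 members in each ovary, in FPKM on a log axis, ordered by role, with WT ovaries in blue and ERβKO ovaries in red. Id2 and Tgif1 stand at the right with levels above 48 FPKM in every ovary, and Bmp5, Nog and Chrd stay below 1 FPKM.

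The 5 members printed next with sequence just upstream of their RefSeq start are those called by edgeR or DESeq2 for which the promoter table had an entry, so that the stretch before each gene can be read beside its level. Sequences are from RefSeq on GRCm38.p6, written along the strand of the gene, with bases that lie in an annotated exon left out, and capitals mark a searched SMAD motif. Ltbp1 (chr17:75005279-75005528, plus strand) holds GTCTG, the SMAD box, 64 bases upstream of the start. Tgfbr1 (chr4:47352972-47353221, plus strand) holds GGCGCC, the GC-rich SMAD site, 233 bases upstream. Ltbp4 (chr7:27337693-27337862, minus strand), Smad1 (chr8:79399519-79399678, minus strand) and Smad6 (chr9:64022060-64022309, minus strand) held neither. The stretches of Ltbp4 and Smad1 end 80 and 90 bases before the RefSeq start.
Ltbp1: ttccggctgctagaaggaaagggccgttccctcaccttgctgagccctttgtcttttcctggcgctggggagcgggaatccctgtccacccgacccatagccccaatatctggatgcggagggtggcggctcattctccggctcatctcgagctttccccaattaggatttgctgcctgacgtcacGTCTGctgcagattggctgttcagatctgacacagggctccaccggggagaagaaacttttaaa
Ltbp4: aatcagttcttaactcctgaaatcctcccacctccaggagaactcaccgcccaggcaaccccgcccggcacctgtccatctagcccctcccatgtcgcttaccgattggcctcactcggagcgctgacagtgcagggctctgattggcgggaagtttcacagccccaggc
Tgfbr1: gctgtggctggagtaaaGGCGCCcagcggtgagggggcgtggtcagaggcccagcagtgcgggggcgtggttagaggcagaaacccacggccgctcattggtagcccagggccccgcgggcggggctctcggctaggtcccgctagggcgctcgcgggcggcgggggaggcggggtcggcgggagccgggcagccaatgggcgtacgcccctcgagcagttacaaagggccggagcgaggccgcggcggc
Smad1: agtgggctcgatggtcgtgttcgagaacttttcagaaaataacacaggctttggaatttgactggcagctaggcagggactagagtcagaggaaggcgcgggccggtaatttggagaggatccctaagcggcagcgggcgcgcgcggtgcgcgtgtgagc
Smad6: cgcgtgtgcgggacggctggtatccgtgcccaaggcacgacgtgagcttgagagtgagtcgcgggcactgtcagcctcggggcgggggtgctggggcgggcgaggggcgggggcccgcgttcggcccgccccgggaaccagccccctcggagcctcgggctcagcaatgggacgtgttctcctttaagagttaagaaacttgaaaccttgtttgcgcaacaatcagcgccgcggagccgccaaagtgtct

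The stretches differed in base composition, with a GC content of 56.8% for Ltbp1, 60.6% for Ltbp4, 58.1% for Smad1, 66.8% for Smad6 and 74.8% for Tgfbr1. The table held 30 of the 43 members, and both strands of the 250 bases before each start were searched for 4 motifs. GGCGCC was found in 10 of the 30 member promoters, and in 9.59% of 32851 promoters, where the mean GC content was 67.0% for the members and 53.2% for all. The 10 were Bmpr1a, Bmpr2, Chrd, Grem1, Id2, Id4, Ski, Smad9, Smurf2 and Tgfbr1, of which Tgfbr1 alone was called, by DESeq2. GTCTG was found in 13 of 30, and in 42.2% of all promoters. The palindromic SMAD site GTCTAGAC, which contains no GTCTG, and the full estrogen response element were in none of the 30, and in 0.167% and 0.0517% of all promoters. A match here is a string of letters and not a measured binding site, and the lack of a match does not show a lack of binding. By sequencing DNA bound to ERβ in WT ovaries, the study reported binding sites at Tgfbr1 and in the promoter of Skil. Skil was not among the 30 members searched.

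Among the TGF-β ligands, Tgfb3 was the most abundant and none was called. Tgfb3 was measured at 16.9, 14.7, 19.9, 19.5 and 16.2 FPKM across WT replicates 1 to 5 and at 21.6, 19.5, 14.8 and 15.3 FPKM across ERβKO replicates 1 to 4. The genotypes overlapped throughout, with a log2 fold change of 0.00 (SE 0.12). Tgfb3 made up 62.9% ± 8.0 of the summed FPKM of the 3 ligand genes in WT and 65.0% ± 6.5 in ERβKO ovaries (SD over 5 and 4 ovaries). Tgfb1, the ligand best known from immune and stromal cells, averaged 6.19 ± 1.4 and 5.33 ± 1.1 FPKM (SD over 5 and 4 ovaries). Tgfb2 averaged 4.14 ± 1.1 FPKM in WT and 4.09 ± 0.30 FPKM in the ERβKO ovaries. Of the annotated exon bases of Tgfb3 12.4%, and of those of Tgfb2 2.14%, also lie in a gene on the opposite strand.

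Of all members, Ltbp1 had the largest log2 fold change. Ltbp1 (ENSMUSG00000001870, chromosome 17 of GRCm38 from 75005568 to 75392512, plus strand) tethers latent TGF-β to fibrillin-rich matrix. Ltbp1 was measured at 51.5, 55.0, 23.3, 51.9 and 75.3 FPKM across WT replicates 1 to 5 and at 13.6, 15.0, 21.1 and 24.4 FPKM across ERβKO replicates 1 to 4. WT replicate 3 lay within the ERβKO range, and the other 4 WT ovaries had at least 51.5 FPKM, more than the highest ERβKO ovary. The mean fell from 51.4 ± 19 to 18.5 ± 5.1 FPKM (SD over 5 and 4 ovaries), 0.36 of the WT level. The log2 fold change was -1.51 (SE 0.29), with an adjusted p of 0.0323 by the edgeR quasi-likelihood test and of 1.01e-05 in DESeq2.

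Ltbp4 (ENSMUSG00000040488, chromosome 7 from 27305136 to 27337692, minus strand) acts in elastic fibre assembly and binds latent TGF-β. Ltbp4 was measured at 20.5, 26.6, 18.7, 19.5 and 15.6 FPKM across WT replicates 1 to 5 and at 26.6, 31.2, 30.9 and 32.2 FPKM across ERβKO replicates 1 to 4. WT replicate 2, the highest WT ovary, met the lowest ERβKO ovary, and all others were apart. The mean rose from 20.2 ± 4.0 to 30.2 ± 2.5 FPKM (SD over 5 and 4 ovaries), 1.5 times the WT level. By the edgeR quasi-likelihood test, the log2 fold change of 0.55 (SE 0.12) had an adjusted p of 0.0457, and in DESeq2 the adjusted p was 0.0023.

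Ltbp3, known for its part in the development of bone and teeth, averaged 26.9 ± 2.6 FPKM in WT and 30.2 ± 1.6 FPKM in the ERβKO ovaries (SD over 5 and 4 ovaries), and its log2 fold change of 0.14 was not called (adjusted p = 0.384 by the edgeR quasi-likelihood test). The make-up of the LTBP transcripts therefore differed. Ltbp1 was 50.7% ± 10 of the summed FPKM of Ltbp1, Ltbp3 and Ltbp4 in WT and 23.1% ± 4.1 in ERβKO ovaries, and Ltbp4 was 21.2% ± 5.6 and 38.4% ± 2.6 (SD over 5 and 4 ovaries). The ratio of Ltbp1 to Ltbp4 was 2.52, 2.07, 1.25, 2.66 and 4.82 in WT replicates 1 to 5 and 0.513, 0.479, 0.683 and 0.757 in ERβKO replicates 1 to 4. Ltbp1 thus exceeded Ltbp4 in every WT ovary and was below it in every ERβKO ovary, a contrast built from the 2 called genes and no independent result. The summed FPKM of the 3 genes was 98.4 ± 19 in WT and 79.0 ± 8.0 in ERβKO ovaries, and the ranges overlapped.

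**Figure D2:**
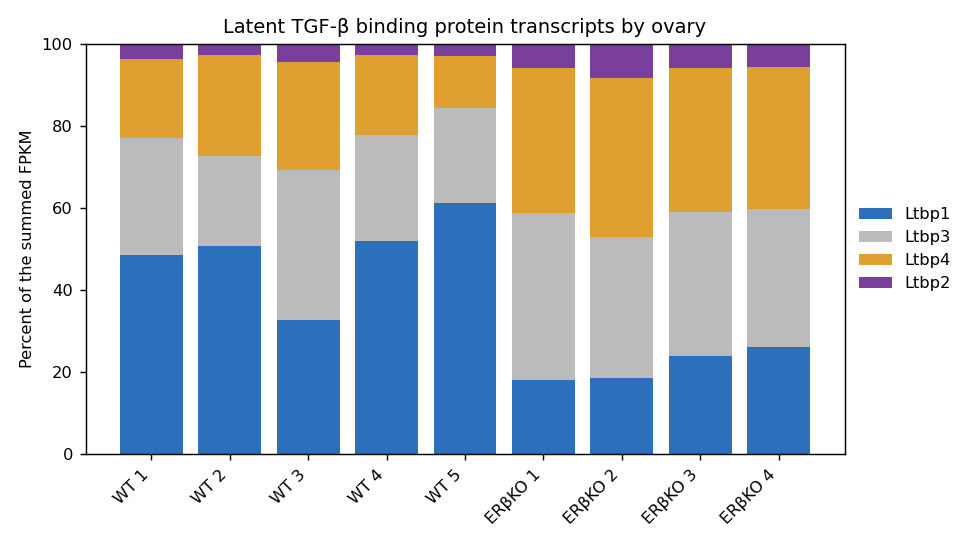
Share of each LTBP gene in the summed FPKM of Ltbp1, Ltbp2, Ltbp3 and Ltbp4, in percent, with 1 bar per ovary. Ltbp1 took 32.8% to 61.3% in the WT ovaries and 18.1% to 26.1% in the ERβKO ovaries, and Ltbp2, which is no member of the set, stayed under 9%.

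Each LTBP call was lost in most fits with 1 ovary left out, and the count of called members lay between 0 and 4. Over all genes, the same fits called 60 to 919, against 287 with every ovary. By the edgeR quasi-likelihood test, the adjusted p of Ltbp1 was 0.0239 without WT replicate 2 and 0.00649 without WT replicate 3. It was 0.0783, 0.067 and 0.0628 without WT replicates 1, 4 and 5, and 0.0648, 0.116, 0.0783 and 0.0586 without ERβKO replicates 1 to 4, so the call was lost in these 7 fits. Ltbp1 nonetheless kept its direction, with log2 fold changes from -1.69 to -1.31. For Ltbp4 the adjusted p was 0.00775 without WT replicate 2 and 0.0429 without ERβKO replicate 1, where the call was kept. It was 0.0934, 0.0673, 0.094 and 0.081 without WT replicates 1, 3, 4 and 5, and 0.128, 0.106 and 0.13 without ERβKO replicates 2, 3 and 4, where it was lost, and the log2 fold change ranged from 0.48 to 0.65. In the labels, WT replicates 4 and 5 carry library numbers above 200 and all other libraries numbers below it. With those 2 left out, no member was called, and the log2 fold changes were -1.21 for Ltbp1 (adjusted p = 0.142 by the edgeR quasi-likelihood test) and 0.45 for Ltbp4 (adjusted p = 0.178).

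The 6 BMP ligand genes were expressed at low levels of up to 9.13 FPKM, and none was called. Bmp2, an inducer of bone that is also made by granulosa cells, had the highest mean of the ligands over all 9 ovaries, although Bmp3 was higher in the WT mean. Bmp2 was measured at 4.14, 3.70, 2.14, 5.16 and 3.71 FPKM across WT replicates 1 to 5 and at 7.87, 4.18, 1.94 and 9.13 FPKM across ERβKO replicates 1 to 4. ERβKO replicates 1 and 4 were above all WT ovaries and ERβKO replicate 3 was below them, and the log2 fold change of 0.57 (SE 0.38) was not called. Bmp3, a BMP that opposes the others in bone, averaged 4.09 ± 1.0 FPKM in WT and 5.18 ± 0.90 FPKM in the ERβKO ovaries (SD over 5 and 4 ovaries). Bmp4, made by theca and stromal cells, averaged 3.20 ± 0.56 and 3.72 ± 0.56 FPKM, and Bmp6, also made by the oocyte, 3.52 ± 0.86 and 3.01 ± 0.34 FPKM. Bmp7, a theca BMP, averaged 1.78 ± 0.30 and 1.94 ± 0.64 FPKM. Bmp5 lay between 0.275 and 0.525 FPKM over all ovaries, and 46.7% of its annotated exon bases also lie in a gene on the opposite strand, so its reads cannot be told apart from those of that gene if the counting ignored the strand. Over the 6 ligands, log2 fold changes ran from -0.27 to 0.57.

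Bmp1 carries a BMP name but encodes a procollagen C-proteinase, which also trims extracellular BMP antagonists. Bmp1 was measured at 29.4, 27.4, 27.3, 22.1 and 22.2 FPKM across WT replicates 1 to 5 and at 24.5, 23.4, 26.5 and 27.6 FPKM across ERβKO replicates 1 to 4. The genotypes overlapped, with a log2 fold change of -0.04 (SE 0.094).

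Of the 6 type I receptor genes, Tgfbr1 was lower in every ERβKO ovary than in any WT ovary. It was the only one of the 43 members with this separation, which held for 3.31% of all genes tested. Tgfbr1 (ENSMUSG00000007613, chromosome 4 from 47353222 to 47414931, plus strand) encodes the kinase that passes the TGF-β signal to SMAD2 and SMAD3. Tgfbr1 was measured at 32.3, 21.1, 20.0, 31.3 and 43.4 FPKM across WT replicates 1 to 5 and at 16.4, 16.0, 16.1 and 18.3 FPKM across ERβKO replicates 1 to 4. The ERβKO ovaries lay close together, while the WT ovaries spread from 20.0 to 43.4 FPKM. The log2 fold change was -0.85 (SE 0.22), with an adjusted p of 0.0726 by the edgeR quasi-likelihood test, so Tgfbr1 was not called there, and of 0.00372 in DESeq2, where it was. Without WT replicate 2 the edgeR adjusted p was 0.0249 and without WT replicate 3 it was 0.0342. In every other fit with 1 ovary left out it was between 0.105 and 0.192, and Tgfbr1 was not called. Tgfbr1 held 28.7% ± 6.8 of the summed FPKM of the type I receptors in WT and 17.5% ± 0.70 in ERβKO ovaries (SD over 5 and 4 ovaries).

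None of the other type I receptor genes was called by either tool. Acvrl1, the endothelial receptor for circulating BMPs, was measured at 8.18, 6.15, 7.71, 8.47 and 7.78 FPKM across WT replicates 1 to 5 and at 10.6, 6.44, 10.1 and 9.01 FPKM across ERβKO replicates 1 to 4. ERβKO replicate 2 was inside the WT range and the other 3 were above it, and the log2 fold change of 0.21 (SE 0.076) had an unadjusted p of 0.0207 and an adjusted p of 0.173 by the edgeR quasi-likelihood test. Acvr1, a receptor for BMPs and anti-Müllerian hormone, was measured at 15.7, 14.5, 17.2, 14.9 and 12.7 FPKM across WT replicates 1 to 5 and at 13.8, 18.8, 23.1 and 19.1 FPKM across ERβKO replicates 1 to 4. Here ERβKO replicate 1 was inside the WT range and the other 3 were above it (log2 fold change 0.36, SE 0.15, adjusted p = 0.232 by the edgeR quasi-likelihood test). Bmpr1a, a broadly used BMP receptor, was even across ovaries with 22.7 ± 0.71 and 21.5 ± 0.61 FPKM (SD over 5 and 4 ovaries). Bmpr1b, the BMP receptor of granulosa cells that is tied to litter size in sheep, averaged 19.1 ± 3.3 FPKM in WT and 22.1 ± 4.2 FPKM in the ERβKO ovaries. Acvr1b, the activin receptor, averaged 7.43 ± 1.2 and 7.76 ± 0.59 FPKM. Acvrl1 and Acvr1b are neighbours on chromosome 15, 28.7 kb apart.

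Among the type II receptors and the co-receptor, Bmpr2 had the highest level. Bmpr2, the type II receptor for most BMPs and for the oocyte factor BMP15, was measured at 23.1, 20.7, 15.1, 22.2 and 24.9 FPKM across WT replicates 1 to 5 and at 28.5, 27.0, 21.5 and 35.5 FPKM across ERβKO replicates 1 to 4. Of the ERβKO ovaries 3 were above all WT ovaries, and the log2 fold change of 0.38 (SE 0.16) had an unadjusted p of 0.0393 and an adjusted p of 0.228 by the edgeR quasi-likelihood test. Tgfbr2, which binds TGF-β and recruits the product of Tgfbr1, averaged 18.9 ± 3.0 FPKM in WT and 18.9 ± 0.59 FPKM in the ERβKO ovaries (SD over 5 and 4 ovaries), with a log2 fold change of -0.04. The means of the partner were thus alike in both genotypes, unlike those of Tgfbr1. Eng, the endothelial co-receptor endoglin, averaged 11.8 ± 1.9 and 11.6 ± 0.50 FPKM.

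**Figure D3:**
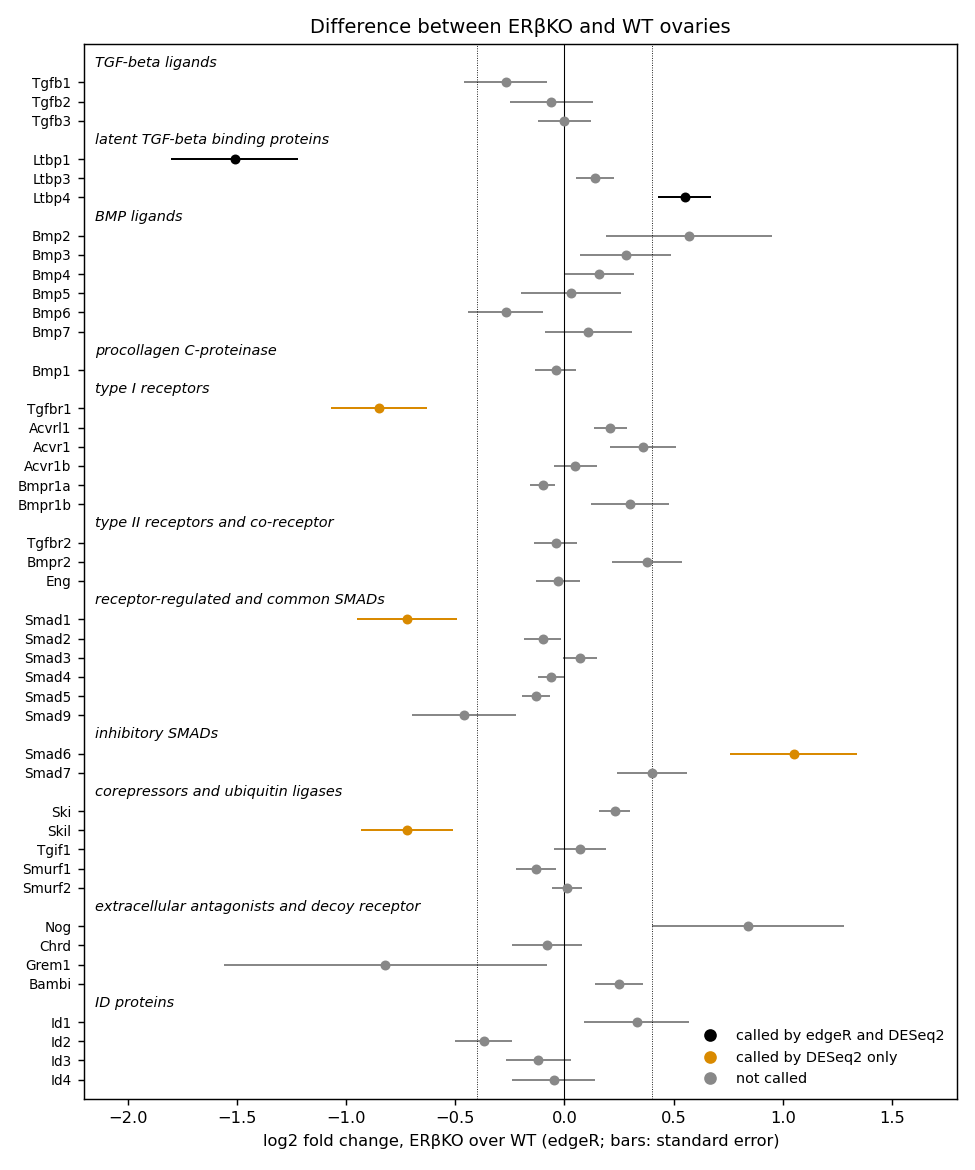
Log2 fold change of each of the 43 members, ERβKO over WT, from edgeR, with its standard error as a bar, ordered by role; dotted lines mark the fold threshold of 0.4 in either direction. Ltbp1 at -1.51 and Ltbp4 at 0.55 are the black points, called by edgeR and DESeq2, and 32 of the 43 members lie between the dotted lines.

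In all, 32 of the 43 members (74.4%) had an absolute log2 fold change under 0.4, against 82.4% of all genes tested. The receptor-regulated SMADs are the messengers of the pathway, and edgeR called none of them. Smad1 (ENSMUSG00000031681, chromosome 8 from 79338395 to 79399518, minus strand), which carries the BMP signal together with SMAD5 and SMAD9, was measured at 15.4, 11.5, 8.89, 16.6 and 23.1 FPKM across WT replicates 1 to 5 and at 9.70, 9.08, 9.03 and 10.0 FPKM across ERβKO replicates 1 to 4. WT replicate 3 was the lowest of all ovaries, and the other 4 WT ovaries were above all ERβKO ovaries. The log2 fold change was -0.72 (SE 0.23), with an adjusted p of 0.132 by the edgeR quasi-likelihood test and of 0.0349 in DESeq2. Without WT replicate 3 edgeR gave an adjusted p of 0.0466, which met the call. In every other fit with 1 ovary left out the edgeR value was between 0.0651 and 0.28, and the call was not met. With WT replicates 4 and 5 both left out, the log2 fold change of Smad1 was -0.35 (adjusted p = 0.372 by the edgeR quasi-likelihood test). Smad5, whose product carries the same signal, averaged 19.1 ± 0.79 FPKM in WT and 17.7 ± 1.5 FPKM in the ERβKO ovaries (SD over 5 and 4 ovaries). Smad9, the least abundant of the 3, averaged 2.53 ± 0.32 and 1.89 ± 0.76 FPKM, with 0.959 FPKM in ERβKO replicate 2. Its log2 fold change was -0.46 (SE 0.24), and its difference from that of Smad1 was not tested. Smad1 made up 40.1% ± 8.7 of the summed FPKM of Smad1, Smad5 and Smad9 in WT and 32.5% ± 1.2 in ERβKO ovaries.

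The SMADs of the TGF-β and activin branch had close means. Smad2 averaged 15.4 ± 2.7 FPKM in WT and 14.5 ± 2.3 FPKM in the ERβKO ovaries, and Smad3 averaged 13.9 ± 0.80 and 14.8 ± 1.9 FPKM (SD over 5 and 4 ovaries). Smad4, the partner shared by both branches, was measured at 21.9, 21.7, 22.6, 24.6 and 22.8 FPKM across WT replicates 1 to 5 and at 22.8, 23.1, 19.9 and 23.4 FPKM across ERβKO replicates 1 to 4. The values overlapped and varied little, and the log2 fold change was -0.06 (SE 0.062).

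Both inhibitory SMAD genes were higher in every ERβKO ovary than in any WT ovary, and edgeR called neither. They were the only 2 of the 43 members with this separation, a share near the 4.29% of all genes tested. Smad6 (ENSMUSG00000036867, chromosome 9 from 63953076 to 64022059, minus strand), whose product restrains mainly BMP receptors, was measured at 0.83, 0.586, 0.971, 1.06 and 0.444 FPKM across WT replicates 1 to 5 and at 1.76, 1.43, 2.26 and 1.23 FPKM across ERβKO replicates 1 to 4. The mean of the ERβKO ovaries was 2.15 times that of the WT ovaries, but the gene rested on only 25 to 128 fragments per library. Its log2 fold change of 1.05 (SE 0.29) had an adjusted p of 0.0883 by the edgeR quasi-likelihood test and of 0.0132 in DESeq2, and no single ovary left out brought the edgeR value under 0.05. Smad7, which restrains both branches, was measured at 2.83, 2.72, 2.84, 2.65 and 2.78 FPKM across WT replicates 1 to 5 and at 3.53, 3.56, 5.26 and 3.08 FPKM across ERβKO replicates 1 to 4. The WT ovaries were nearly equal and ERβKO replicate 3 was the highest, and neither tool called Smad7 (log2 fold change 0.40, SE 0.16, adjusted p = 0.211 by the edgeR quasi-likelihood test). The summed FPKM of both genes was 3.54 ± 0.26 in WT and 5.53 ± 1.4 in ERβKO ovaries (SD over 5 and 4 ovaries). Smad3, 195 kb from Smad6 on chromosome 9, had a log2 fold change of 0.07.

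The products of the corepressor genes Ski and Skil hold SMAD complexes inactive, and edgeR called neither gene. Skil (ENSMUSG00000027660, chromosome 3 from 31095058 to 31122577, plus strand), itself a TGF-β target, was measured at 18.5, 12.4, 10.2, 13.2 and 20.3 FPKM across WT replicates 1 to 5 and at 8.78, 8.24, 10.3 and 8.60 FPKM across ERβKO replicates 1 to 4. ERβKO replicate 3 just exceeded WT replicate 3, and all other ERβKO ovaries were below every WT ovary. The log2 fold change of -0.72 (SE 0.21) had an adjusted p of 0.0998 by the edgeR quasi-likelihood test and of 0.0157 in DESeq2. The edgeR value was 0.0481 without WT replicate 2 and 0.0483 without WT replicate 3. These 2 were the only fits with 1 ovary left out that met the call, and the value reached 0.246 without ERβKO replicate 2. Ski was measured at 13.3, 16.8, 12.8, 15.3 and 12.6 FPKM across WT replicates 1 to 5 and at 17.1, 16.2, 16.0 and 16.9 FPKM across ERβKO replicates 1 to 4. WT replicate 2 lay among the ERβKO ovaries, and the log2 fold change of 0.23 (SE 0.070) had an unadjusted p of 0.0074 and an adjusted p of 0.111 by the edgeR quasi-likelihood test.

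Tgif1, a homeobox corepressor of SMADs, was the most abundant member of its role. Tgif1 was measured at 63.7, 59.8, 55.5, 71.6 and 59.2 FPKM across WT replicates 1 to 5 and at 66.7, 81.8, 48.6 and 72.2 FPKM across ERβKO replicates 1 to 4. The ERβKO ovaries held both the lowest and the highest value, with a log2 fold change of 0.07 (SE 0.12). The ubiquitin ligase genes had close means, with 10.2 ± 1.5 and 9.35 ± 0.41 FPKM for Smurf1 and 13.3 ± 0.96 and 13.1 ± 1.3 FPKM for Smurf2 in WT and ERβKO ovaries (SD over 5 and 4 ovaries).

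**Figure D4:**
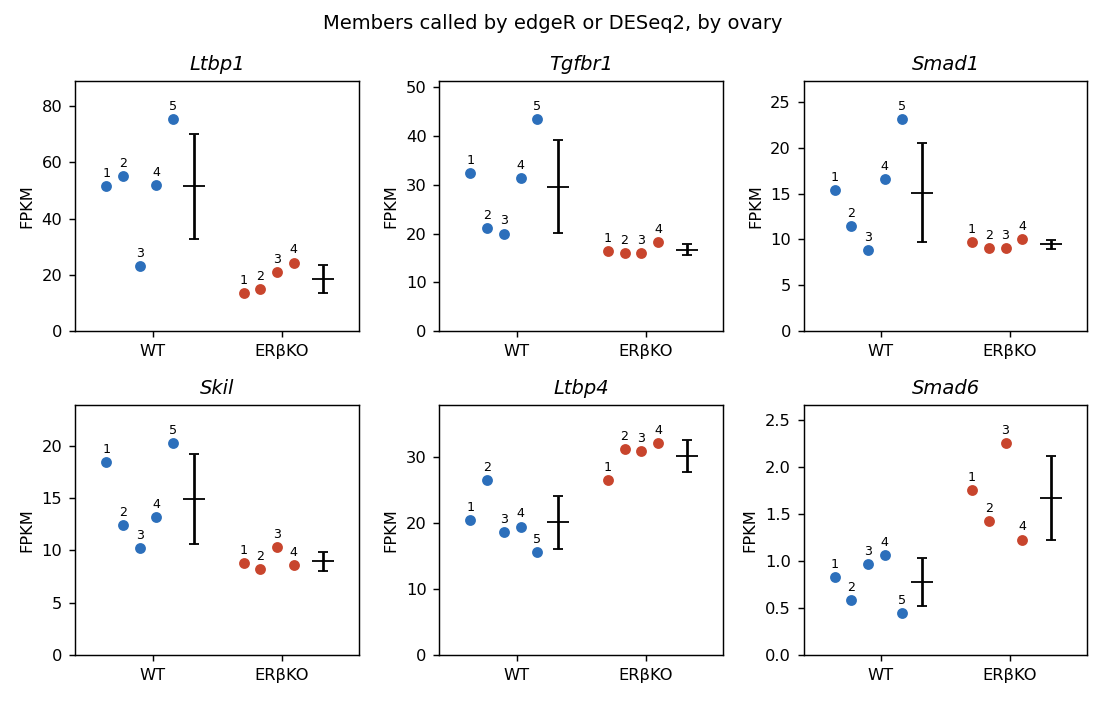
FPKM of the 6 members called by edgeR or DESeq2, with 1 point per ovary labelled by its replicate number and the mean with its SD as a bar beside each genotype (n = 5 WT in blue, 4 ERβKO in red). WT replicate 5 is the highest WT ovary for Ltbp1, Tgfbr1, Smad1 and Skil and the lowest for Ltbp4 and Smad6, and the ERβKO ovaries are tightly grouped for Tgfbr1, Smad1 and Skil.

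The extracellular antagonists, which capture BMPs before they reach a receptor, were expressed at low levels and none was called. Nog (noggin) lay between 0.115 and 0.690 FPKM and Chrd (chordin) between 0.704 and 0.916 FPKM over all ovaries. Grem1 (gremlin), known from granulosa cells of growing follicles, varied most, from 0.304 to 5.76 FPKM in WT and from 0.383 to 2.75 FPKM in the ERβKO ovaries, and its log2 fold change of -0.82 carried an SE of 0.74. Nog had a log2 fold change of 0.84 (SE 0.44, adjusted p = 0.316 by the edgeR quasi-likelihood test) on 4 to 22 fragments per library. Bambi, a decoy receptor without a kinase, was measured at 3.37, 5.13, 3.90, 3.74 and 3.52 FPKM across WT replicates 1 to 5 and at 4.39, 5.16, 4.72 and 4.72 FPKM across ERβKO replicates 1 to 4. WT replicate 2 lay among the ERβKO ovaries and the other WT ovaries were below them, with a log2 fold change of 0.25 (SE 0.11) and an adjusted p of 0.244 by the edgeR quasi-likelihood test.

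The ID genes encode helix-loop-helix proteins that block other transcription factors and respond quickly to BMPs. Id2 was the most abundant, at 73.6, 76.6, 103, 82.9 and 85.8 FPKM across WT replicates 1 to 5 and 66.1, 56.0, 81.8 and 61.9 FPKM across ERβKO replicates 1 to 4. ERβKO replicate 3 lay inside the WT range and the other 3 were below it. The log2 fold change of -0.37 (SE 0.13) had an unadjusted p of 0.0191 and an adjusted p of 0.167 by the edgeR quasi-likelihood test. Id1 averaged 10.5 ± 3.2 FPKM in WT and 13.6 ± 3.8 FPKM in the ERβKO ovaries, Id3 averaged 19.0 ± 2.9 and 17.6 ± 3.2 FPKM, and Id4 averaged 8.40 ± 2.3 and 8.28 ± 1.5 FPKM (SD over 5 and 4 ovaries). Of the 4 log2 fold changes, that of Id1 was positive and the other 3 were negative.

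A list of 62 other genes of the pathway was read beside the members, and 50 of them passed the filter on low counts. Of these 50, edgeR called 3, all higher in ERβKO ovaries, against 1.72% of all genes tested (0.915% called higher and 0.801% called lower). Inhbb, the β subunit of inhibin B and activin B, rose from 46.2 ± 6.1 to 100 ± 21 FPKM (SD over 5 and 4 ovaries), a log2 fold change of 1.09 with an adjusted p of 0.00883 by the edgeR quasi-likelihood test. Ltbp2, the LTBP that does not bind TGF-β, rose from 3.22 ± 0.49 to 5.39 ± 1.0 FPKM (log2 fold change 0.70), and Hipk2, a kinase that works with the corepressor SKI, rose from 6.78 ± 0.82 to 9.97 ± 1.6 FPKM (log2 fold change 0.54). Of the next 3 by p, Acvr1c, a type I receptor for activins and Nodal, had a log2 fold change of 1.35 at a mean of 0.334 and 0.866 FPKM, below the level needed for a call. Fkbp1a, whose product binds type I receptors, had a log2 fold change of -0.28, under the fold needed. Tgfbi, a matrix protein induced by TGF-β, averaged 37.5 ± 2.8 FPKM in WT and 27.0 ± 5.3 FPKM in the ERβKO ovaries and had a log2 fold change of -0.50 with an adjusted p of 0.0506 by the edgeR quasi-likelihood test. DESeq2 called 6 of the list, 5 higher and 1 lower, against 4.78% of all genes (2.22% called higher and 2.56% called lower). Of the 3 edgeR calls, Inhbb was called in each of 19 alternative fits, Ltbp2 in 11 and Hipk2 in 7.

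Markers of ovarian cell types were read beside the members. Of 8 luteal cell markers, 7 had a negative log2 fold change, with a median of -0.89, 4 of them at an unadjusted p under 0.05, and edgeR called none and DESeq2 2. Their summed level was 2160 to 4480 FPKM in WT and 1830 to 2810 FPKM in the ERβKO ovaries. Most of that sum was Hsd3b1 alone, at 1510 to 3490 FPKM in WT and 1640 to 1740 FPKM in the ERβKO ovaries. WT replicates 5 and 1 had the most luteal marker RNA, with 4480 and 4040 FPKM, and WT replicate 2 had the least of the WT ovaries, with 2160 FPKM. Granulosa markers, of which 2 of 8 were called and all 8 had positive log2 fold changes, summed to 198 to 242 FPKM in WT and 294 to 354 FPKM in the ERβKO ovaries, and theca markers to 630 to 916 and 975 to 1820 FPKM. The 6 theca markers tested went both ways, with 4 positive and 2 negative log2 fold changes. Of them Aldh1a1 was called higher by both tools (log2 fold change 1.05) and Mgarp lower by DESeq2 (log2 fold change -0.79). Most of the theca sum was Aldh1a1 alone, at 424 to 620 FPKM in WT and 761 to 1280 FPKM in the ERβKO ovaries. Endothelial markers summed to 120 to 137 and 113 to 133 FPKM, and stromal markers to 572 to 936 and 776 to 819 FPKM. The part of cell make-up in the values of the members was not tested.

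The other marker lists read were mural and smooth muscle cells (652 to 1090 FPKM in WT and 660 to 774 FPKM in the ERβKO ovaries), macrophages (168 to 315 and 201.8 to 345 FPKM), oocytes (28.6 to 90.6 and 63.0 to 99.0 FPKM) and surface epithelium (160 to 266 and 221 to 261 FPKM), with no gene called by edgeR. At an unadjusted p under 0.05 stood 3 mural, 2 endothelial, 2 stromal, 1 surface epithelium and 1 oviduct marker and no macrophage or oocyte marker, and DESeq2 called 1 mural and 1 endothelial marker among these lists. Adipocyte markers summed to 74.4 to 153 FPKM in WT and 96.3 to 549 FPKM in the ERβKO ovaries, all 7 at an unadjusted p under 0.05, with no edgeR call and 3 DESeq2 calls. Markers of oviduct epithelium were present in every library, at 1380 to 2490 and 1600 to 2050 FPKM. Most of that sum was Ovgp1 alone, at 1290 to 2360 and 1480 to 1910 FPKM. No marker was at 0 in all ovaries. Esr2 itself was measured at 17.8, 12.4, 14.9, 23.9 and 14.5 FPKM across WT replicates 1 to 5 and at 14.3, 16.2, 10.5 and 23.7 FPKM across ERβKO replicates 1 to 4, a count over the whole gene that includes the exons the deletion leaves and so does not check the labels. On the first principal component of all genes tested WT replicate 2 lay at 9.43, apart from the other WT ovaries (-43.8 to -15.6) and nearer to the ERβKO ovaries (19.4 to 35.4). Without WT replicate 2 edgeR called 919 genes (5.56% of 16542) and 4 members.

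**Figure D5:**
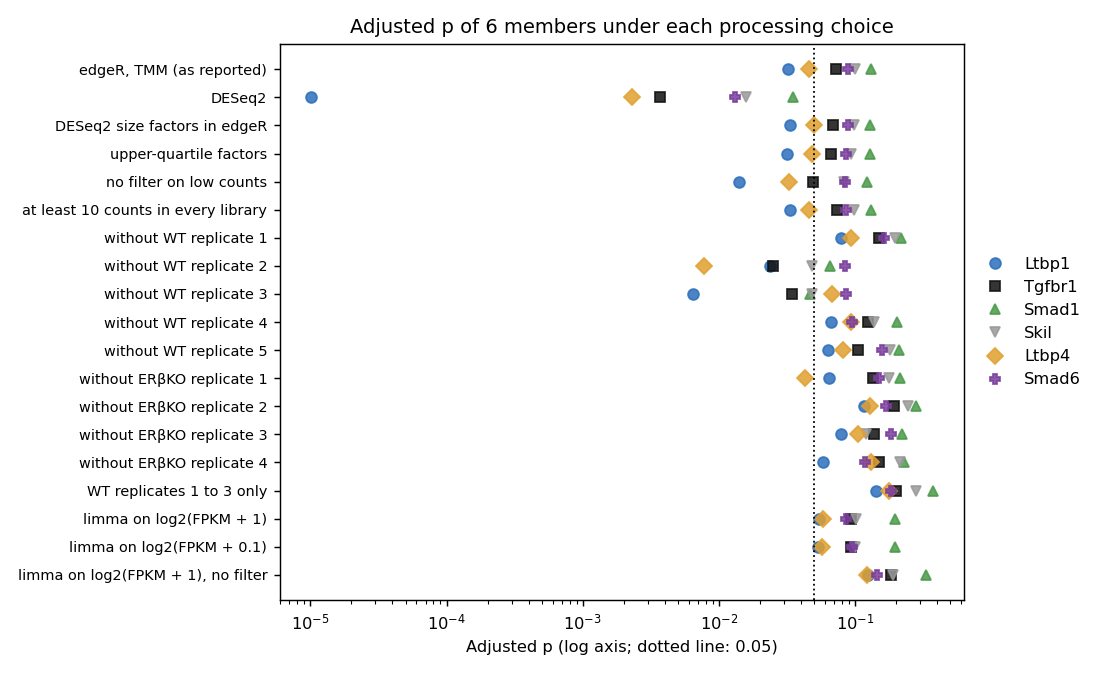
Adjusted p of the 6 members called by edgeR or DESeq2, on a log axis with a dotted line at 0.05. Each processing choice has 1 row, except the replicate block, which is not drawn. All 6 lie left of the line with DESeq2, Ltbp1 and Ltbp4 alone do so as reported, and none does with limma.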

How the data were processed

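Members, lists and tests were chosen with earlier results of these data known. Per the labels and the submitters' processing notes, the libraries were stranded and made from polyadenylated RNA, and reads were demultiplexed with bcl2fastq 2.20.0.422, trimmed with Trim Galore and aligned to mm10 (GRCm38) by STAR. The authors then made the deposited counts with featureCounts, as whole fragments per gene with no scaling, and the strand setting of that step is not given in the sources used here. Deposited FPKM come from StringTie, which the authors ran on each library, and are scaled to transcript length and library depth. The deposited coverage and TPM columns were not used. For 6 genes of the count table no FPKM value was matched. Sums of counts of 12353740 to 18717510 per library set the precision, and low counts, such as the 25 to 128 fragments of Smad6, leave wide errors. The series describes its libraries as biological replicates.

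Counts were filtered with edgeR's filterByExpr, scaled by TMM and fitted with genotype as the only factor in R 4.3.3 with edgeR 4.0.16, all 5 WT against all 4 ERβKO libraries. The quasi-likelihood test of edgeR compared the genotypes, with Benjamini-Hochberg adjustment over 16722 genes (biological coefficient of variation 0.179), with the thresholds of the study's methods. The scripts were tested on simulated data. Alternatives were DESeq2 1.42.0, its size factors or upper-quartile factors in edgeR, no filter, a minimum of 10 counts in all libraries, the replicate block, leaving out each library, the WT libraries numbered below 200, and limma 3.58.1 on log2(FPKM + 1 or 0.1). Values in every library were given for members called by either tool, not overlapping in FPKM or with an unadjusted p under 0.05, and for the most abundant member of each role. Of the other pathway genes, those called and then those with the smallest p were named, up to 6. The 62 other pathway genes and 11 lists of cell markers carried no test of their own as a set. Ccn2 was matched as Ctgf. Promoters and their motifs were read from RefSeq on GRCm38.p6, and gene positions from the files, of which 83.2% of 45223 shared identifiers have the same position in GENCODE M21. Protein sequences were not used here. Tables were handled in Python 3.11.15 with pandas 2.3.3 and NumPy 2.4.6 and drawn with matplotlib 3.10.9.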

Additional observations from a re-analysis of the deposited data

Results flagged for a closer look

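Of 86 groups, each a member within 1 genotype, 3 held 1 ovary far from the rest, where chance gives about 1 in 20 such groups. Tgfb2 was 6.16 FPKM in WT replicate 2 against 3.44 to 3.84 FPKM in the other WT ovaries. Nog was 0.574 FPKM in WT replicate 2 against 0.115 to 0.220 FPKM, at a depth of few counts. Id1 was 19.3 FPKM in ERβKO replicate 3 against 10.9 to 12.3 FPKM in the other ERβKO ovaries. Without WT replicate 2 the log2 fold change of Tgfb2 turned from -0.06 to 0.15, and that of Nog was 1.39 with an adjusted p of 0.0445 by the edgeR quasi-likelihood test, on a level below the 1 FPKM needed for a call.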

How the results depend on the processing

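Members called numbered 2 as reported, 6 with DESeq2, 0 with the replicate block, 0 with only the WT libraries numbered below 200, 0 in each of the limma fits (adjusted p of Ltbp1 at least 0.0537), and 0 to 4 with 1 library left out. Other pathway genes called numbered 3 as reported, 6 with DESeq2, 5 without a filter, 1 with the replicate block, 1 with the WT libraries below 200, 1 with limma without a filter, and 1 to 6 with 1 library left out. Of all genes, 287 were called as reported, 800 with DESeq2, 155 with the replicate block, 51 with the WT libraries below 200, 39 with limma without a filter, and 60 (without ERβKO replicate 2) to 919 (without WT replicate 2) with 1 library left out. No pairing of the libraries by replicate number was seen. The correlations of same-numbered libraries were 0.0948, 0.13, -0.0427 and -0.0105, and no ERβKO library correlated best with the WT library of its own number.

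Of 922 log2 fold changes, of the 43 members and the 6 other pathway genes named, under 19 alternatives, 821 kept direction and side of the threshold, 44 fell out of the call, 15 came into it and 42 changed sign, in 11 genes whose reported size was at most 0.11. With 1 library left out these ran from -0.087 to 0.0084 for Bmp1, -0.075 to 0.13 for Bmp5, -0.11 to 0.25 for Bmp7, -0.089 to 0.037 for Eng, -0.16 to 0.073 for Id4, -0.02 to 0.069 for Smurf2, -0.12 to 0.15 for Tgfb2, -0.091 to 0.073 for Tgfb3 and -0.091 to 0.054 for Tgfbr2. With the replicate block, Bmp5 was -0.0074, Eng 5.4e-05, Smurf2 -0.0077 and Tgfb3 -0.013. With the WT libraries below 200, Id4 was 0.011, Smad2 0.027 and Smad4 0.0017. With limma at a pseudocount of 1, filtered or not, Smurf2 was -0.02, Tgfb2 0.0085 and Tgfbr2 0.0056. At a pseudocount of 0.1, Smurf2 was -0.022, Tgfb2 0.015, Tgfbr2 0.0065 and Id4 0.0016. Tgfb3 was -0.0039 with DESeq2 and -0.0038 with its size factors in edgeR. The causes were not tested.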
